A study of Drosophila melanogaster with 2 samples.

Results

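Regions enriched by precipitation of a tagged espinas protein were located at the fruit fly genes for translation initiation factors (eIF) and elongation factors (eEF). The set held every protein-coding gene on the 6 chromosome arms whose symbol in the Ensembl annotation begins with eIF or eEF, which gave 52 of 13945 protein-coding genes. The method was chromatin immunoprecipitation with sequencing (ChIP-seq) in a single group of 2 biological replicates. The animals were whole white prepupae, the stage at which metamorphosis begins, of mixed sex and unknown age. They came from a transgenic line that makes espinas, encoded by esn, fused at its C-terminus to GFP, the green fluorescent protein. The chromatin was sonicated to fragments of 200 to 800 base pairs and precipitated with an antibody to GFP. Whole animals mix all cell types, and both replicates carried the tag. No untagged group was given and the control libraries were not analysed here, so enrichment through espinas and enrichment from other sources cannot be told apart. Messenger RNA was not measured.

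Initiation factors bring the initiator tRNA, the small ribosomal subunit and the capped end of an mRNA together and select the start codon. Elongation factors then deliver aminoacyl-tRNAs and move the ribosome along the mRNA. Genes for ribosomal proteins and for several of these factors are known for a pyrimidine-rich start element, the TCT initiator, in place of the usual initiator. Espinas has LIM domains and is a relative of Prickle, a protein that orients cells within an epithelium.

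The authors deposited a list of regions for each replicate, a list for both replicates pooled, and a list kept after an irreproducible discovery rate threshold (the IDR list). Each region has a summit, its position of highest enrichment, and a signal value on a scale that is not stated. Signal values are therefore compared within a list, or between the IDR and pooled lists, in which a region has the same signal. Replicate lists are set side by side by rank or order, with rank 1 the strongest, and read depth is unknown. A gene was said to have a promoter summit when a summit lay within 500 bases of the start of one of its protein-coding transcripts. Of the 52 translation factor genes, 26 (50%) had a promoter summit in the IDR list, against 35.4% of all protein-coding genes (4936 of 13945). Among the strongest 10918 regions of each replicate, as many as the IDR list held on the arms, 28 translation factor genes had one in replicate 1, against 35.1% of all genes. In replicate 2 the count was 23, against 34.9% of all genes. In both replicates together, 21 genes had one (40.4%), against 30.7% of all genes, and all 21 were also in the IDR list. The members' share was thus above that of all genes in each list, and the replicates differed over which members passed. The members are one chosen list in one group, so no test was made.

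The share differed between groups of factors, which were set by gene symbol. Of the 10 genes grouped under start selection and the ternary complex, 8 had a promoter summit. That group also took in eIF2A, eIF2D, eIF5B and eIF6, whose roles, described below, differ from the group's name. Each of these had a promoter summit. Of the 8 elongation factor genes, 5 had one. The other groups lay closer to the 35.4% of all genes, with 7 of 16 eIF3 genes (43.8%), 2 of 5 eIF2B genes (40%) and 4 of 13 genes for cap binding and scanning (30.8%). The last group holds most of the later copies of duplicated genes. Over all groups, 1 of 11 later copies had a promoter summit (9.09%), and 25 of 41 first or single copies did (61.0%).

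**Figure D1:**
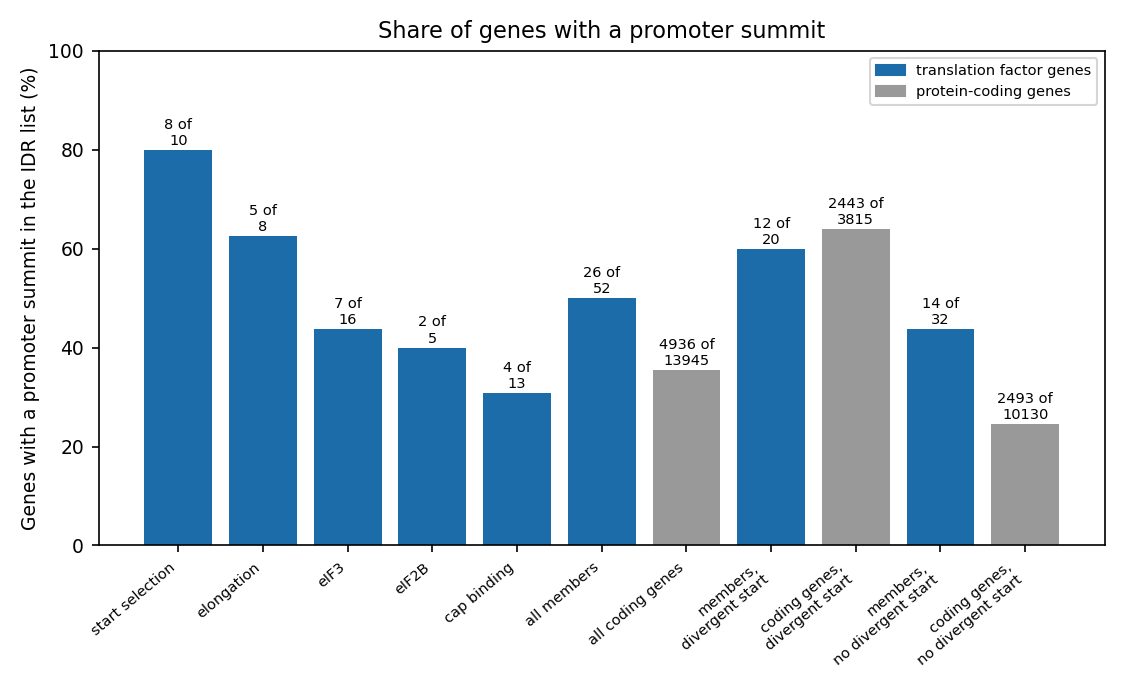
Bars give the percentage of genes with a promoter summit in the IDR list, with counts above them, for the functional groups and all translation factor genes (blue) and for all protein-coding genes (grey), and then for genes with and without a divergent start within 500 bases. The start selection group stands highest among the groups at 80.0%, and the members without a divergent start stand at 43.8% beside 24.6% of all such genes.

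Short words known from core promoters were read in the reference sequence. The TCT initiator was searched on the gene strand as TCTTTT, with C also allowed for the first T and for the last T, and with its first base within 10 bases of an annotated start. It was found in 13 of 52 members (25%), against 4.07% of all protein-coding genes. The first base of the word was the annotated start base in eIF3m only and lay 3 to 10 bases from it in the others. The DNA replication-related element (DRE), TATCGATA, is the palindromic site of the transcription factor DREF. It lay within 250 bases before to 50 bases after a start in 15 members (28.8%), against 10.2% of all genes. The lines below show the 30 bases around 5 starts with a TCT word, chosen to show its place at genes with a promoter summit in the IDR list (eEF2 and eIF3f1) and without one in that list (eIF3i, eIF3g1 and eIF3e), and 4 windows around a summit with the DRE in capitals. Sequences are from Release 6 of the genome (RefSeq) with dm6 coordinates, on the strand of the gene, and summit windows leave out annotated exons.
eEF2 start, chr2L:21682102-21682131, minus strand, TCT word in capitals: gtcgctgcagcgcctcgcTCTTTCctgtcg
eIF3f1 start, chr3R:4714168-4714197, minus strand, TCT word in capitals: cccgcactatcgataggcCCTTTTcttgca
eIF3i start, chr2L:4967761-4967790, minus strand, TCT word in capitals: taggccacggtcacactgcTCTTTTggcgt
eIF3g1 start, chrX:2610322-2610351, minus strand, TCT word in capitals: gtgaccgcggcagggtaacacTCTTTTgtt
eIF3e start, chr3L:16786927-16786956, minus strand, TCT word in capitals: ggtaactctgagcgggcgtcacTCTTTTcg
eEF1gamma summit, chr3R:29220099-29220171, plus strand, DRE in capitals: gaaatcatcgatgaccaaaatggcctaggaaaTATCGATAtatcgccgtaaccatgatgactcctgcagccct
eIF1 summit, chr3L:3222974-3223054, plus strand, DRE in capitals: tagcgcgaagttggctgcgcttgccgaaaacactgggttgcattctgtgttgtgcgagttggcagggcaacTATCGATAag
eIF3a summit, chr3R:4433911-4433964, minus strand, DRE in capitals: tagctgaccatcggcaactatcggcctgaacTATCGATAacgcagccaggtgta
eIF2alpha summit, chrX:16446994-16447047, minus strand, DRE in capitals: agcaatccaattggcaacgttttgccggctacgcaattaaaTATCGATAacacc

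The start of eIF3f1 held both words, since its DRE lies just before the TCT word, in lower case in the line above. The start of eIF3i had a TCT word 4 bases past the annotated start, and no list held a promoter summit there. Outside the IDR list, eIF3g1 had a weak promoter summit in replicate 1 (rank 25580), 489 bases downstream of the start. A different region in replicate 2 (rank 28606) had its summit 15 bases downstream of that start. The gene eIF3e had a promoter summit in replicate 1 (rank 15617) and in the pooled list, 103 bases upstream of its start.

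The group named for start selection and the ternary complex included the strongest member of the set. The gene eIF6, whose protein keeps the large ribosomal subunit from joining the small one too early, had a signal of 3571 in the IDR list and rank 64. Its region lay on 2R from 23850180 to 23850612, and its summit stood 103 bases upstream of the start, in an intron of ytr. Its signal was 2534 in the replicate 1 list, at rank 57, and 1032 in the replicate 2 list, at rank 124. It was thus near the top of every list, and 98.9% of all genes with a promoter summit had a weaker one. The start of an antisense RNA gene, asRNA:CR45928, lay 74 bases from this summit, and a single start of eIF6 was annotated.

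The gene eIF1, whose protein guards the choice of start codon, had a signal of 1198 at rank 868 (3L, 3222819 to 3223469). In the lists of replicates 1 and 2 its region had signals of 880 at rank 643 and 314 at rank 1623. The summit stood 327 bases upstream of eIF1 and 54 bases upstream of RpL28, which encodes a protein of the large ribosomal subunit and runs the other way. A second summit of the same region, with a signal of 542, stood 121 bases upstream of eIF1. The gene for eIF5B, the GTPase that joins the ribosomal subunits, had a signal of 827 at rank 1618 (3L, 3460543 to 3460908). The replicates placed it almost alike, at rank 1629 with a signal of 517 in replicate 1 and at rank 1668 with a signal of 308 in replicate 2. Its summit lay in an exon of eIF5B, 135 bases upstream of the start of a shorter transcript, and the gene body held 8 IDR summits. The gene eIF2D, for a factor with roles in reinitiation and ribosome recycling, had a signal of 676 at rank 2179 (3R, 29151737 to 29152022), with signals of 449 at rank 2015 and 232 at rank 2497 in replicates 1 and 2. Its summit lay in intergenic sequence 111 bases upstream of the start.

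The heterotrimer eIF2 carries the initiator tRNA, and its 3 subunit genes were unlike each other. The gene eIF2beta had a signal of 520 at rank 3127, with its summit 262 bases upstream of the start in intergenic sequence. The gene eIF2alpha, which encodes the subunit phosphorylated under stress, had a signal of 164 at rank 10933, next to the lowest signal of the IDR list. In replicates 1 and 2 its strongest promoter regions had signals of 130 at rank 8888 and 32.5 at rank 19500. Replicate 2 thus held the gene outside its strongest 10918 regions. The replicate 2 summit stood 85 bases downstream of the start, and the IDR summit stood 14 bases upstream. The gene eIF2gamma had no promoter summit in any list, and the nearest IDR summit stood 2139 bases from its start. The gene eIF2A, for a factor that can bring initiator tRNA to the ribosome without eIF2, had a signal of 514 at rank 3197, and eIF1A, for a partner of eIF1 on the small subunit, had a signal of 236 at rank 7781. The gene eIF5, for the factor that triggers GTP hydrolysis by eIF2, had a promoter summit in the pooled list but not in the IDR list, with a signal of 51.3 at rank 26465 of 30000.

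**Figure D2:**
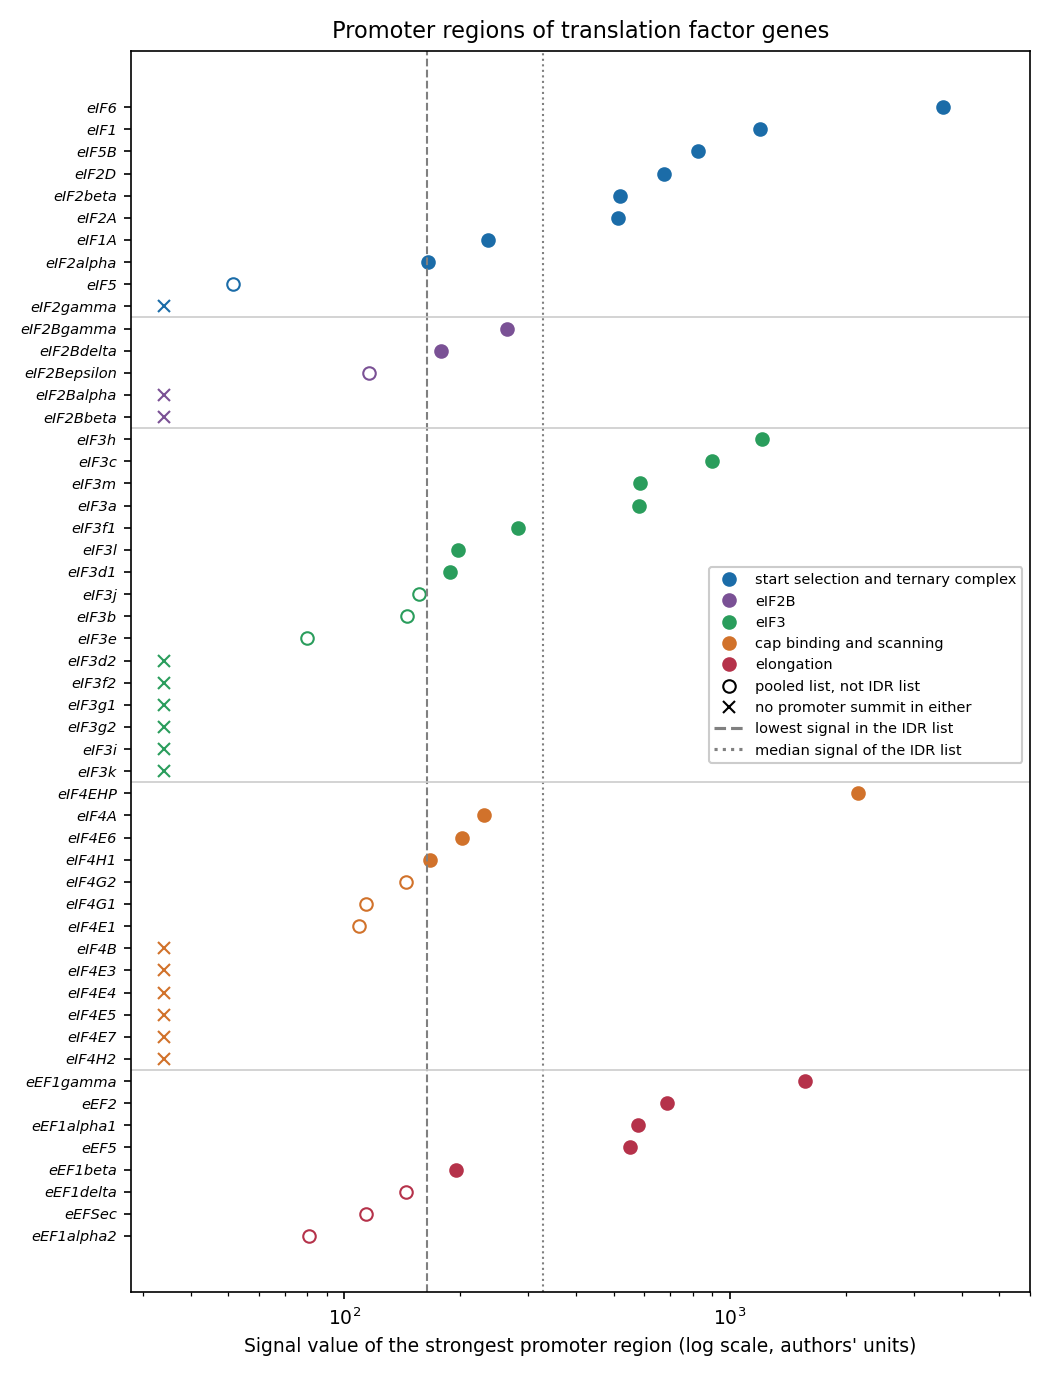
Each of the 52 genes is a row, and the horizontal axis gives the authors' signal value of its strongest promoter region on a log scale, as filled circles for the IDR list, open circles for genes with one in the pooled list but not the IDR list, and crosses for genes with neither. The vertical lines mark the lowest signal (164) and the median signal (328) of the IDR list, and 15 of the 26 filled circles lie above the median.

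The factor eIF2B recharges eIF2 with GTP. Of its 5 subunit genes, eIF2Bgamma had a signal of 264 at rank 6912 (2R, 15542403 to 15542878), and eIF2Bdelta had a signal of 178 at rank 10194 (2R, 23386216 to 23386691). Both lay below the list median of 328. In replicates 1 and 2 eIF2Bgamma had signals of 158 at rank 7316 and 102 at rank 6987. For eIF2Bdelta the signals were 121 at rank 9535 and 62.5 at rank 11509, so replicate 2 placed it just outside its strongest 10918 regions. The gene eIF2Bepsilon, for the catalytic subunit, had a promoter summit in the pooled list but not in the IDR list (signal 116, rank 14616). The gene eIF2Bbeta was the member whose nearest IDR summit lay closest outside the 500 bases, at 684 bases, although the replicate 1 list held a weak summit 9 bases from its start (signal 53.1, rank 19326). The gene eIF2Balpha lay 45782 bases from the nearest IDR summit. The nearest member just inside the 500 bases was eIF3l, at 392 bases.

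The eIF3 complex is the scaffold on which the small subunit, the other factors and the mRNA meet. The gene eIF3h had the strongest promoter region of its subunits, with a signal of 1211 at rank 844 (2L, 5052280 to 5052943). Replicates 1 and 2 gave it signals of 826 at rank 748 and 375 at rank 1226. Its strongest summit stood 274 bases downstream of the nearest start, in an intron of eIF3h, and a second summit with a signal of 785 stood 12 bases downstream of that start. The gene eIF3c, for a core subunit, had a signal of 897 at rank 1415 (2R, 17665415 to 17665805), with signals of 585 at rank 1355 and 320 at rank 1565 in replicates 1 and 2. The gene eIF3m had a signal of 584 at rank 2685 (2R, 14164890 to 14165021), with signals of 419 at rank 2226 and 177 at rank 3585. The gene eIF3a, for the largest core subunit, followed with a signal of 580 at rank 2702 (3R, 4433843 to 4434089). Its values in replicates 1 and 2 were 425 at rank 2176 and 159 at rank 4143. These 4 genes stood above the list median in the IDR list.

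The other 3 eIF3 genes with a promoter summit stood below that median. The gene eIF3f1 had a signal of 282 at rank 6431, with its summit 7 bases downstream of the start, and signals of 172 at rank 6718 and 103 at rank 6975 in replicates 1 and 2. The gene eIF3l had a signal of 197 at rank 9225 (3L, 12146251 to 12146726), with signals of 114 at rank 10018 and 75.9 at rank 9567 in replicates 1 and 2. The gene eIF3d1 had a signal of 188 at rank 9687, with its summit 37 bases upstream of the start, and signals of 108 at rank 10591 and 88.5 at rank 8156 in replicates 1 and 2. The core subunit gene eIF3b had a promoter summit in the strongest regions of replicate 1 alone (rank 10061), 448 bases upstream of a start. Its strongest in replicate 2 was a different region at rank 11486, with a summit 1 base from another start. The gene eIF3j was also in the strongest regions of replicate 1 alone (rank 10544, against rank 17090 in replicate 2). In the pooled list eIF3j had a signal of 156 and eIF3b one of 146, just under the lowest IDR signal of 164. The gene eIF3e reached a signal of 80.0 at rank 19263 in that list. The genes eIF3g1, eIF3i and eIF3k had no promoter summit in the pooled list, and their nearest IDR summits stood at 1351, 3775 and 2369 bases. The later copies eIF3d2, eIF3f2 and eIF3g2 also had none, at 26625, 1699 and 79980 bases from the nearest IDR summit.

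The eIF4 factors bind the cap and unwind the mRNA ahead of the scanning ribosome. The gene eIF4EHP, whose protein binds the cap without recruiting the ribosome and so represses translation, had a signal of 2154 at rank 241 (3R, 24108873 to 24109432). Among the 26 genes it stood out for its rank in replicate 2, with signals of 1013 at rank 498 in replicate 1 and 1145 at rank 89 in replicate 2. Its summit lay in intergenic sequence 225 bases upstream of the start and 151 bases upstream of CG18428 on the other strand. The bases at this summit carried 2 TATAAA words, 1 on each strand, and are shown because eIF4EHP stood apart from the rest of its group.
eIF4EHP summit, chr3R:24109145-24109225, minus strand, TATAAA on either strand in capitals: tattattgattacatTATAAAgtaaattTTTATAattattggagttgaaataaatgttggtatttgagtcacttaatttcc

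The other 3 genes of the cap group with a promoter summit were weak, and each was among the strongest 10918 regions of replicate 1 but not of replicate 2. The gene eIF4A, for the RNA helicase, had a signal of 231 at rank 7931 (2L, 5982398 to 5982522), with signals of 198 at rank 5744 and 51.1 at rank 13728 in replicates 1 and 2. Its summit stood 103 bases upstream of an internal start and 727 bases from the start that carries the TCT word. The gene eIF4E6, a later copy of the cap-binding protein gene, had a signal of 201 at rank 9042 (3R, 29027016 to 29027491), with signals of 145 at rank 7980 and 44.3 at rank 15438. Its summit lay in an exon of CG1951, 18 bases past the start of that gene. The gene eIF4H1, for a cofactor of the helicase, had a signal of 166 at rank 10805 (X, 16448781 to 16449256). Its signals were 126 at rank 9149 in replicate 1 and 43.3 at rank 15706 in replicate 2, where the summit was nearest to another start. Together with eIF2alpha and eIF2Bdelta, these made 5 members that had an IDR promoter summit but none in the strongest 10918 regions of replicate 2.

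The main cap-binding gene and both scaffold genes lacked a promoter summit in the IDR list. The gene eIF4E1, for the main cap-binding protein, had a signal of 109 at rank 15297 in the pooled list, 29 bases upstream of a start. It was in the strongest regions of replicate 2 (rank 10090) and not of replicate 1 (rank 16852), with summits nearest to different starts. The later copies eIF4E3, eIF4E4, eIF4E5 and eIF4E7 had no promoter summit in any list, and their nearest IDR summits stood 31058, 43544, 11410 and 8791 bases away. The scaffold gene eIF4G1, the only member on chromosome 4, had a pooled signal of 114 at rank 14869, with ranks 13129 and 14228 in replicates 1 and 2. Its later copy eIF4G2 had a pooled signal of 144 at rank 12231 and was in the strongest regions of replicate 2 alone (rank 9533, against rank 14664 in replicate 1). The helicase cofactor genes eIF4B and eIF4H2 had no promoter summit in any list. The gene eIF4B lay 1845645 bases from the nearest IDR summit, the widest gap of the set.

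Among the elongation genes, eEF1gamma led with a signal of 1565 at rank 519 (3R, 29219885 to 29220356). It encodes a subunit of the complex that reloads the tRNA-delivering eEF1alpha with GTP. The signals of eEF1gamma were 1099 at rank 424 in replicate 1 and 464 at rank 809 in replicate 2, and its summit lay in intergenic sequence 33 bases upstream of the start. The DRE in the window printed above began 8 bases before this summit. The gene for the translocase eEF2 had a signal of 688 at rank 2116 (2L, 21682003 to 21682373), with signals of 473 at rank 1874 and 220 at rank 2668 in replicates 1 and 2. Its summit stood 12 bases upstream of the start whose TCT word is shown above.

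The gene eEF1alpha1, which encodes the factor that delivers aminoacyl-tRNA, had a signal of 579 at rank 2706 (2R, 11891885 to 11892290), with signals of 449 at rank 2011 and 152 at rank 4383 in replicates 1 and 2. This summit stood 25 bases upstream of an internal start. A weaker summit with a signal of 186 at rank 9793 stood 95 bases upstream of the first start, which carries the TCT word. The divergent gene ERp60 starts 156 bases from a start of eEF1alpha1. Sharing was read for the strongest summit only, so whether ERp60 shares the weaker one was not counted. The gene eEF1alpha1 has a later copy, eEF1alpha2. That copy lacked a promoter summit in the IDR list but had one in the pooled list, with a signal of 80.9 at rank 19094. Its ranks in replicates 1 and 2 were 26697 and 14379. The gene eEF5, for the hypusine-bearing factor that relieves stalled ribosomes, had a signal of 549 at rank 2911. Its summit lay in an exon of eEF5, 21 bases upstream of the inner of its annotated starts. The exchange factor gene eEF1beta had a signal of 194 at rank 9366. The remaining exchange factor gene eEF1delta, with a pooled signal of 144 at rank 12223, and eEFSec, for the selenocysteine factor, with 114 at rank 14849, had promoter summits in the pooled list but not in the IDR list. All 8 elongation genes therefore had a promoter summit in the pooled list, in which 37 of 52 members (71.2%) had one, against 52.0% of all genes.

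The replicate lists ordered the 26 genes alike. Across them, Spearman's rho between the signals of replicate 1 and replicate 2 was 0.893 (n = 26), a description of points that share the same pair of libraries. The IDR list was itself chosen with both libraries. Ranks ran between 57 and 10591 in replicate 1 and between 89 and 19500 in replicate 2. All 26 were within the strongest 10918 regions of replicate 1, and 21 were within those of replicate 2. The median signal in the IDR list was 535 over the 26 genes, against 375 over all protein-coding genes with a promoter summit. Of the 26, 15 were above the list median, while 57.1% of all protein-coding genes with one were.

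**Figure D3:**
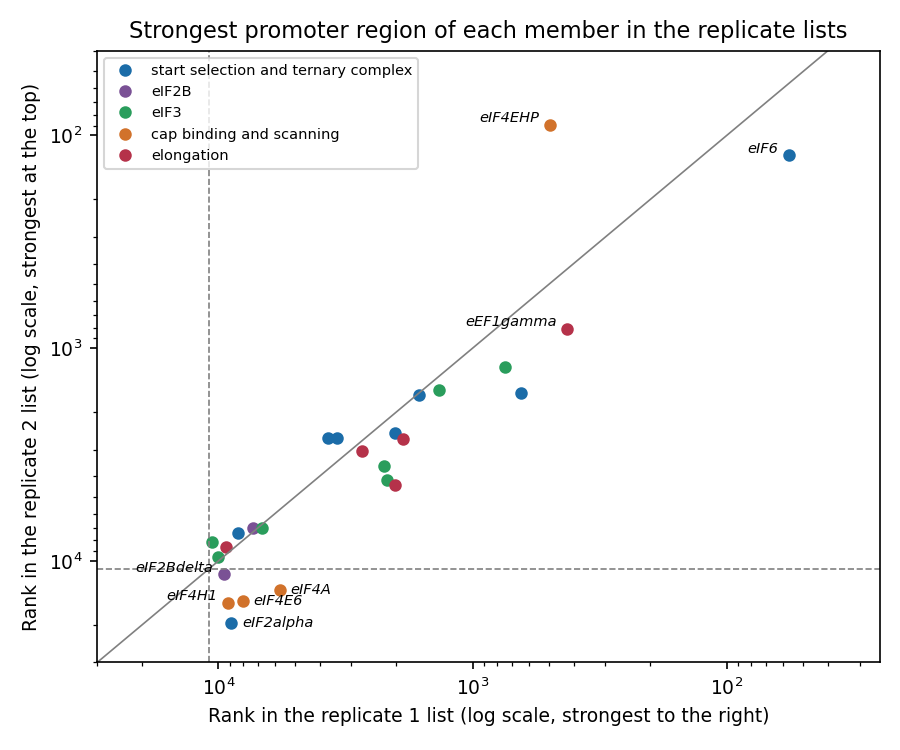
Each point is one of the 26 genes, placed by the rank of its strongest promoter region in the replicate 1 list and in the replicate 2 list on log scales, with the strongest at the upper right and the diagonal marking equal ranks. The dashed lines mark rank 10918, and the 5 named genes below the horizontal line are outside the strongest regions of replicate 2, while eIF4EHP lies above the diagonal at ranks 498 and 89.

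The summits stood close to the starts and mostly upstream of the nearest one. The median distance was 73.5 bases for the 26 genes, against 127 bases for all protein-coding genes with a promoter summit. Within 150 bases lay 21 of 26 (80.8%), against 57.6% of all such genes. Upstream of the nearest start lay 24 of 26 (92.3%), against 82.6%. The exceptions were eIF3f1 and eIF3h. A summit upstream of the nearest start can still lie inside the gene, past an earlier start. This held for eEF1alpha1, eEF2, eEF5, eIF1A, eIF2A, eIF4A, eIF4H1 and eIF5B. By annotation, 13 of the 26 summits were intergenic, 9 were in an exon and 4 were in an intron. The exon was that of a neighbour for eIF2Bdelta and eIF4E6. Of all IDR regions, 48.6% were exactly 476 bases wide, as were 9 of the 26 here, so the width of a region was not read as its extent.

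Several of these summits were promoter summits of another gene as well. For 10 of the 26 genes, the strongest promoter summit was also within 500 bases of a start of another protein-coding gene, and all 10 of these neighbours were divergent. Among all protein-coding genes with a promoter summit, 53.0% shared it with another gene. The summit was nearer to the neighbour in 6 pairs and nearer to the translation gene in 4. The pairs nearer to the neighbour were eIF1 with RpL28, eIF3l with Nrx-IV, a septate junction gene, eIF4EHP with CG18428, eIF3a with CG1074, eIF4E6 with CG1951 and eIF2Bdelta with roh. For eIF3l the summit stood 392 bases from its own start and 30 bases from that of Nrx-IV. The gap between the starts was 70 bases for eIF3a and CG1074, and the summit stood 56 bases from eIF3a and 14 bases from CG1074. The pairs nearer to the translation gene were eIF1A with Vps39, which encodes a vesicle tethering subunit, eIF3m with CG8323, eEF1beta with Psi, which encodes an RNA-binding splicing regulator, and eIF3h with senju. For eIF1A the distances were 6 bases to its own start and 246 bases to that of Vps39. In 7 of the 10 pairs the summit lay between the 2 starts.

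**Figure D4:**
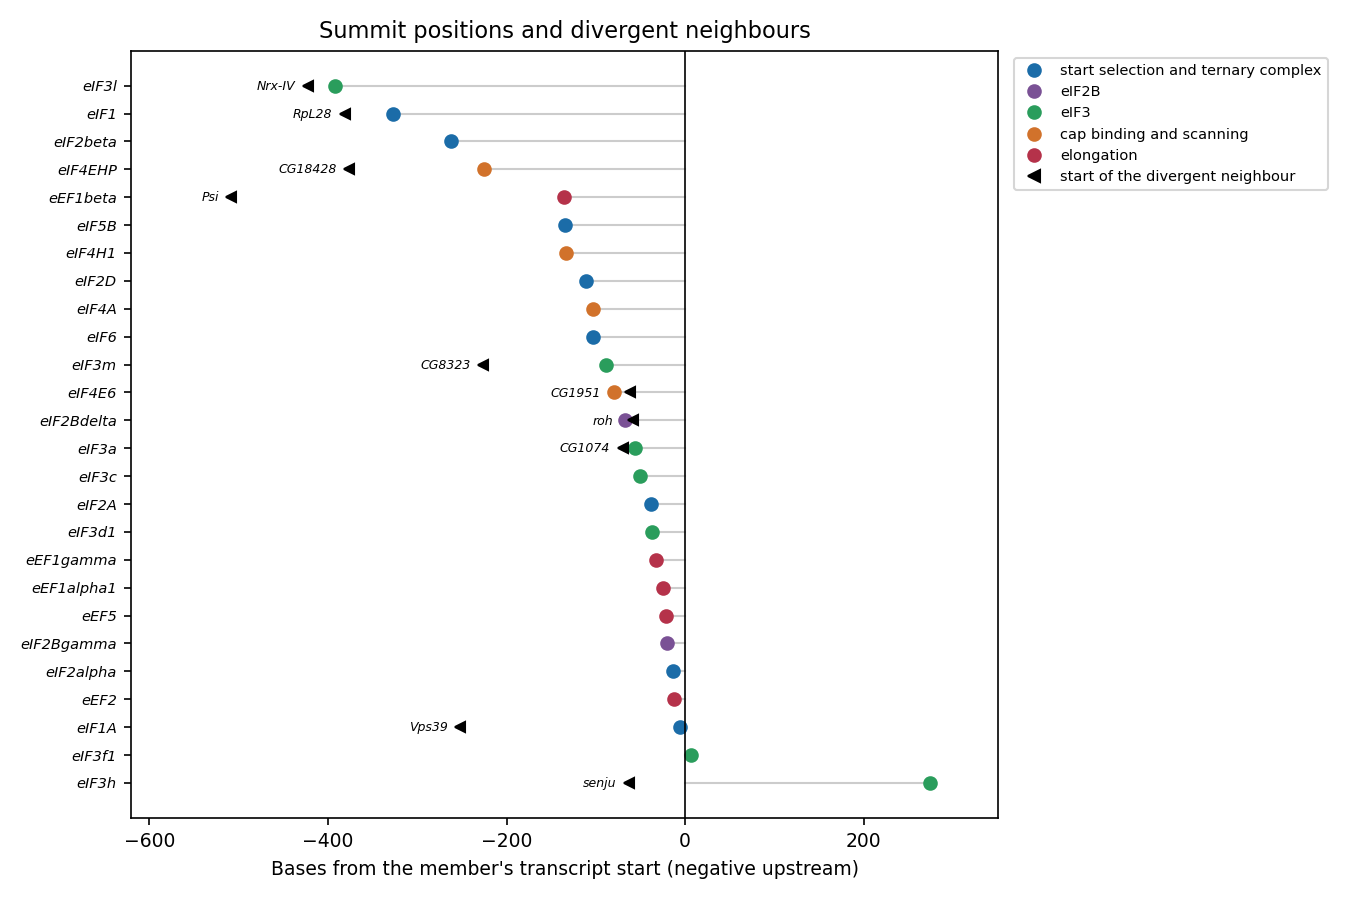
Circles give the distance in bases of the strongest promoter summit from the nearest start of each of the 26 genes, with upstream to the left of 0, and triangles mark the start of a divergent neighbour that shares the summit. Of the circles, 24 lie left of 0, and eIF3h stands alone at 274 bases downstream.

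Translation genes with a divergent start were near the share of all such genes, and those without one were above theirs. Among the 20 translation genes with a divergent protein-coding start within 500 bases, 12 had a promoter summit (60.0%), against 64.0% of all such genes, and 27.4% of all genes had such a layout. Among the 32 without one, 14 had a promoter summit (43.8%), against 24.6% of all such genes. The members without a summit despite a divergent start were eIF2gamma with Set, eIF2Balpha with Vps13B, eIF2Bepsilon with Ocrl, eIF3b with Patronin, eIF3d2 with CG43450, eIF3g2 with Tmlh, eEFSec with Acox57D-p and eIF5 with exd. Genes with more annotated starts have more chances to lie near a summit. With 1 start, 13 of 32 members had a promoter summit (40.6%), against 28.5% of all such genes, and with 2 or more starts 13 of 20 had one (65.0%), against 54.4%. By arm, the members with a promoter summit were 3 of 5 on 2L, against 33.8% of all genes there, 8 of 13 on 2R, against 34.6%, and 5 of 11 on 3L, against 35.0%. On 3R they were 8 of 15, against 37.2%, on X 2 of 7, against 36.3%, and on chromosome 4 they were 0 of 1, against 30%. Those 2 on X, eIF2alpha and eIF4H1, were the weakest of all 26.

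Several core promoter words, though not all, were more frequent in the members with a promoter summit than in those without, a difference that was not tested. A word was counted at any start of a gene. Of the members with a summit 13 had 2 or more starts, and of those without 7 did, so more sequence was read for the former. The TCT word was found in 9 of 26 members with a summit (34.6%) and in 4 of 26 without (15.4%), against 5.65% of all protein-coding genes with a promoter summit and 3.20% of all without. Among cytosolic ribosomal protein genes it was found in 74 of 88 (84.1%). The 9 members with both were eEF1alpha1, eEF2, eEF5, eIF1A, eIF3c, eIF3f1, eIF3m, eIF4A and eIF5B, and the 4 without a summit were eEF1delta, eIF3e, eIF3g1 and eIF3i. In 8 of the 9 an IDR summit lay within 500 bases of the TCT start itself, and in eIF4A it did not. For eEF1alpha1 this was the weaker summit, for which sharing with a neighbour was not read. In eEF2, eEF5, eIF1A and eIF3f1 the TCT start was also the start nearest to the strongest summit, at 12, 21, 6 and 7 bases. The usual initiator, searched on the gene strand as TCAGTT with C also allowed for the last T and within the same 10 bases, was found in none of the 26 members with a summit and in 2 of the others, eEF1alpha2 and eIF2gamma, against 14.3% of all genes.

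The DRE was found near a start in 11 of 26 members with a summit (42.3%) and in 4 of 26 without (15.4%), against 17.2% of all protein-coding genes with a promoter summit and 6.29% of all without. Within 100 bases of the strongest summit it was found for 8 of 26 members (30.8%), against 8.30% of all 4577 promoter summits of the IDR list. These were eEF1gamma, eIF1, eIF2A, eIF2alpha, eIF3a, eIF3f1, eIF4E6 and eIF6, which span the strongest and the weakest member. The only annotated start of eIF1 had no DRE in the window read around starts. The summits of eIF1, eIF3a and eIF4E6 also stood nearer to the start of a divergent neighbour. The DRE at these summits therefore cannot be assigned to the translation gene alone. The other words were read on both strands over the window used for the DRE, each by itself, so that matches of different words may overlap. Motif 1, GGTCACAC, was found in 9 of 52 members (17.3%), against 8.71% of all genes, and within 100 bases of 4 of the 26 summits (15.4%), against 5.51%. The core of Ohler motif 7, CATCNCTA, was found in 9 members (17.3%), against 7.45%, that of Ohler motif 6, GGTATTT, in 10 (19.2%), against 11.7%, and the E-box CACGTG in 5 (9.62%), against 5.34%. The GGTATTT word was in 4 of 26 members with a summit (15.4%) and in 6 of 26 without (23.1%). Over all protein-coding genes its shares were 15.6% with a promoter summit and 9.50% without. The TATA box, TATAAA, was found in 24 members (46.2%), against 51.3% of all genes. It was in 15 of 26 members with a summit (57.7%) and in 9 of 26 without (34.6%). Over all protein-coding genes its shares were 54.2% with a promoter summit and 49.7% without. Within 100 bases of the strongest summit the TATA box was found for 6 of 26 members (23.1%), against 33.5% of all promoter summits, the Ohler motif 7 core for 3 (11.5%), against 7.14%, the Ohler motif 6 core for 2 (7.69%), against 7.12%, and the E-box for 1 (3.85%), against 2.43%. The summit windows were slightly richer in G and C, at 41.8 ± 8.0% (SD over 26 windows) for the members and 37.5 ± 8.1% (SD over 4577 windows) for all promoter summits. A match to a word is a description of the sequence and was not tested as a site.

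**Figure D5:**
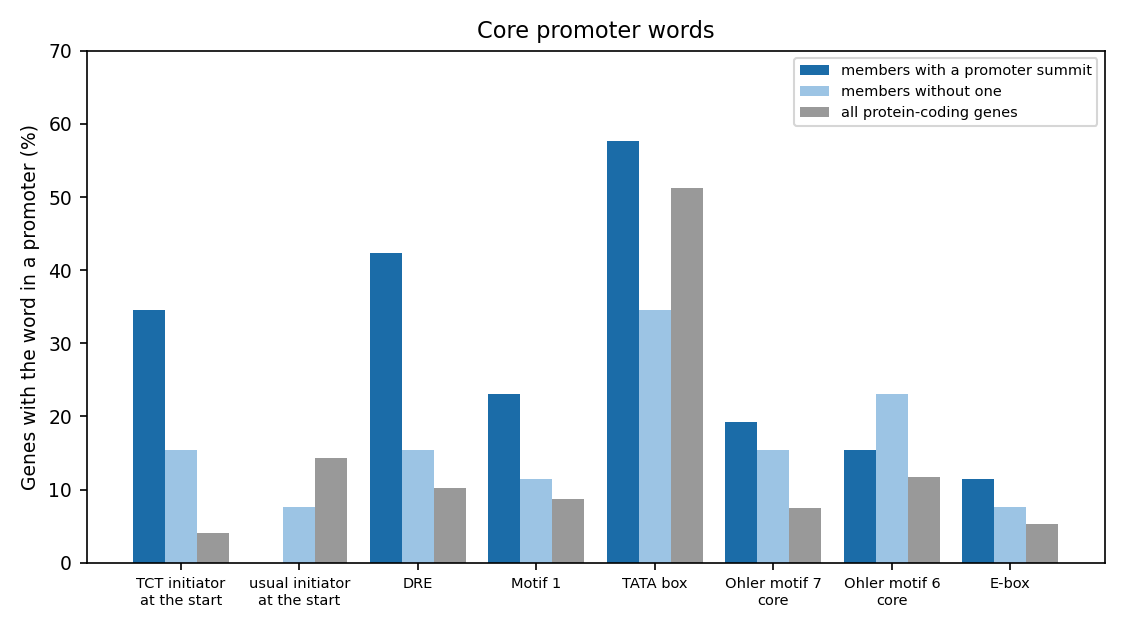
Bars give the percentage of genes with each word near any of their starts, for the 26 members with a promoter summit, the 26 members without one and all protein-coding genes. For the TCT initiator the bars stand at 34.6%, 15.4% and 4.07%, and for the DRE at 42.3%, 15.4% and 10.2%.

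Other genes of translation were listed for comparison, and 21 of 32 (65.6%) had a promoter summit in the IDR list, against 35.4% of all protein-coding genes. All 5 genes for release and rescue of ribosomes had one, led by pix, which encodes the recycling ATPase (signal 739), eRF1, the stop codon reader (598), and its GTPase partner eRF3 (480). The summits of pix, eRF1, eRF3 and HBS1 were shared with Srp68, Rbbp5, SC35 and CG12025. A divergent start lay within 500 bases for 4 of these 5 genes, and 64.0% of all genes with that layout had a promoter summit. Of the regulators and partners of the cap complex, 9 of 14 had one, led by larp, a La-related RNA-binding protein gene, with a signal of 6002 at rank 13. Next in that list were pAbp, for the poly(A)-binding protein (887), and crc, the fly ATF4 gene (610). Of the genes that modify elongation factors, 4 of 6 had one. They were led by Dph1 (1372) and Dph4 (1203), which act in making the diphthamide of eEF2, and nero, for the hydroxylase that completes hypusine on eEF5 (249). Of the mitochondrial factors, 3 of 7 had one, mRF1 (310), mIF2 (301) and mEFTu1 (269), all below the list median of 328. Outside the release and rescue genes, the summits of crc, mxt, Dph4, nero and mRF1 were also shared with another protein-coding gene.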

How the data were processed

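Members, groups, gene lists and words were chosen with earlier results of these data known. The authors made dm6 region lists for each replicate and for both pooled, and an IDR-thresholded list, per the deposited file descriptions. Neither the peak caller, with its version, nor the cutoff was given in the sources used here. The deposited signal value per region is the authors' enrichment measure, of unstated scale. The files hold no read counts, so depth is unknown and no depth-based error is given. On the arms, all 10918 IDR regions stood in the pooled list with the same signal and were its strongest ones. Lists on dm3 were not used, since the annotation is on dm6.

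Starts came from protein-coding transcripts in Ensembl release 115 (BDGP6.54) and sequence from RefSeq Release 6, with dm6 coordinates, all 1-based. A divergent neighbour has an opposite-strand start pointing away. Where a gene had several promoter summits, the strongest in each list was used. Values of a gene from different lists can therefore belong to different regions. All members were named. By rule, signals or ranks in the replicate lists were given where a list held the gene. The rule covered the 10 strongest, the weakest 3, those nearest to 500 bases, and first and later copies of duplicated genes. It also covered members with an IDR promoter summit but outside the strongest regions of a replicate. Replicate values of eIF2Bgamma, eIF3a and eIF3e were added outside this rule after their values were seen. Those of eIF3b and eIF3j, in the strongest regions of replicate 1 alone, also lay outside it. The gene eIF2A, absent from the groups as first written, was put with start selection. Of 34 symbols of other translation genes, DHPS and mEFG2 had no match. The replicates are labelled biological, with nothing on separate cultures, so their spread may be technical. The scripts were tested on simulated data. Python 3.11.15, numpy 2.4.6, pandas 2.3.3, scipy 1.17.1 and matplotlib 3.10.9 were used. Alternatives changed the list, distance, starts, overlap rule and windows.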

Additional observations from a re-analysis of the deposited data

How the results depend on the processing

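Of 116 values under alternatives, 91 were unchanged by their criterion and 25 moved, for counts by over 1.5 times, for the median distance by over the SD of 20.5 bases between the replicates' medians, and for the median signal, which has no replicate SD, by any change. With one replicate's list in place of the IDR list, members with a promoter summit numbered 23 to 28, eIF2B genes 1 to 2, and the median distance was 66 to 95 bases. In the strongest 5459 regions of the IDR list, 15 members (28.8%) had a promoter summit, against 20.2% of all genes (2819). There the counts were 0 for eIF2B, 4 for eIF3, 1 for cap binding, 5 for sharing with an opposite-strand neighbour and 11 for other translation genes, and the median signal was 688. In the pooled list cap binding had 7, elongation 8, the median distance was 103 bases and the median signal 231. The median signal was 545 at 250 bases, 549 at 1000 bases, 520 with the most upstream start and 579 where the region had to overlap the start. Under that last rule 6 members shared a region and the median distance was 50 bases. The TCT word was found in 6 members within 5 bases of a start, against 2.20% of all genes. Within 50 bases of the summit the TATA box was found at 2 of 26 (all promoter summits 18.7%), the Ohler motif 7 core at 1 (3.54%), GGTATTT at 1 (3.28%) and the E-box at 0 (0.939%). Fewer regions or bases searched give lower counts by construction. Alternatives for the other translation genes were chosen after seeing the data. Median signals were not computed for replicate lists, whose scale differs. No paired analysis was possible because there was a single group.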
